A study of Homo sapiens with 12 samples.

Results

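The genes described here encode 10 secreted proteins of the acute-phase response and of antimicrobial defence, namely LCN2, SAA1, SAA2, SAA4, HP, PTX3, SERPINA3, SLPI, PI3 and S100A8, out of 25992 gene names on the array. They were taken as every non-control probe whose gene name is one of these symbols, which gave 13 probes. Each gene has 1 probe, except SAA2 with 2 and SERPINA3 with 3. Of the 10 genes, 9 had a probe that exceeded background in both arrays of 1 or more groups and could be tested, while S100A8 was well above background on 0 of 12 arrays.

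Their mRNA was measured in HK-2 and RPTEC/TERT1 cells, both immortalised human proximal tubular cell lines, HK-2 by papillomavirus genes and RPTEC/TERT1 by telomerase. After 24 h without serum and supplements, the cells received IL-1β (10 ng/mL), the SGLT2 inhibitor empagliflozin (Empa, 500 nM) or no ligand (control) for 24 h, in the absence of serum. One-color Agilent arrays were hybridized for 6 groups of 2 arrays, 12 in all, described as biological duplicates. The study asked which tubular inflammatory responses to IL-1β are opposed by SGLT2 inhibition, and no array holds both agents together.

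The acute-phase response is the change in secreted proteins that follows tissue injury or infection, driven mainly by IL-1, IL-6 and TNF. Its classical source is the liver, but epithelia also make several of these proteins locally. NF-κB, C/EBP factors and STAT3 are the main transcription factors described for these genes. In the kidney, LCN2 (neutrophil gelatinase-associated lipocalin, NGAL) is known as a marker of tubular injury. It withholds iron from bacteria by binding their siderophores. SAA1 and SAA2 are the inducible serum amyloid A apolipoproteins, and SAA4 is the member of that family known for constitutive expression in the liver. PTX3 is a long pentraxin that binds microbes and complement components, SERPINA3 (α1-antichymotrypsin) inhibits cathepsin G and chymase, and SLPI and PI3 (elafin) are small inhibitors of neutrophil elastase with antimicrobial activity. HP (haptoglobin) binds free haemoglobin, and S100A8 is a subunit of calprotectin, a metal-binding protein of neutrophils.

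The arrays lie on 4 slides, and each slide holds the control, IL-1β and Empa arrays of one line and replicate number. Values for single slides are given below in the order HK-2 (replicate 1), RPTEC/TERT1 (replicate 2), HK-2 (replicate 2), RPTEC/TERT1 (replicate 1). This order was chosen because the arrays go against their line labels. Over the 12632 genes well above background on all arrays, arrays of the same treatment correlated with r between 0.962 and 0.984 when HK-2 replicate 1 was set against RPTEC/TERT1 replicate 2, or HK-2 replicate 2 against RPTEC/TERT1 replicate 1. Arrays of one line label correlated with r between 0.848 and 0.875, and arrays of one replicate number with r between 0.830 and 0.883. These correlations are across genes, which are not replicates. The sample titles name both lines, whereas the source field names HK-2 for all 12 arrays, so that lines are given here as labelled. The mean over the 4 slides does not depend on the line labels, but tests with groups by line label do. A level is the log2 signal relative to the 75th percentile of its array, and the lowest value it can take is -8.71, the floor of 1 signal unit. A level is an average over the culture, so that more responding cells and more mRNA per cell cannot be told apart. A signal counted as detected when the scanner software marked it well above background. The share of probes so marked was between 53.5% and 63.1% per array, and no value of the 13 probes was saturated. The proximal tubular marker LRP2 and the Empa target SLC5A2 (SGLT2) were well above background on all 12 arrays, as were 11 of 17 kidney and proximal tubule markers. SLC22A6 was detected on 0 arrays and CUBN on 1.

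The 3 SAA genes lie together on chromosome 11, where the probes for SAA4, SAA2 and SAA1 fall within 37327 bases of hg19. PI3 and SLPI, both of the whey acidic protein family, lie together on chromosome 20, with probes within 77635 bases. Probes of 6 of the genes are shown here 5′ to 3′, since a level rests on the 60 bases that the array can bind. For LCN2, SAA1, SAA4, SLPI and PI3 the probe shown is the tested one. For SERPINA3 it is A_23_P2920, which was not in the fit, while the tested probe A_33_P3399788 lies at chr14:95090330-95090389. No part is capitalised.

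LCN2, chr9:130914244-130914303, plus strand: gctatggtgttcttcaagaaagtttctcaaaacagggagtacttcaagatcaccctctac

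SAA1, chr11:18290868-18291310, plus strand: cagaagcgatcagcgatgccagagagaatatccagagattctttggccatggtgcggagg

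SAA4, chr11:18253984-18254043, minus strand: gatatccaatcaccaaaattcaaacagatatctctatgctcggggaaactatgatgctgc

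SERPINA3, chr14:95088682-95088741, plus strand: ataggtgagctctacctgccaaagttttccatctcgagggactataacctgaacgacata

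SLPI, chr20:43882220-43882279, minus strand: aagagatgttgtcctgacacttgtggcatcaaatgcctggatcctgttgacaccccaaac

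PI3, chr20:43804645-43804704, plus strand: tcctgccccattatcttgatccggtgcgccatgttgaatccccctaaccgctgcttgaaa

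The 60 bases of the SAA1 probe span 443 bases of the genome, so that it crosses a splice junction, and the other 5 are unbroken in the genome. SAA1 and SAA2 are near-identical copies, and cross-hybridisation of their transcripts was not tested. Between probes of different SAA genes, the longest run of identical bases was 8, between the SAA1 probe and one of the SAA2 probes.

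The promoter windows of LCN2 and PTX3 are shown as well, because they were those among the 10 genes in which a letter match to the NF-κB motif was found. Windows of 250 bases before and 50 bases after a transcription start were taken from RefSeq (GRCh38.p14), and 7 windows for 5 of the 10 genes were present (LCN2, PTX3, SAA4, SERPINA3 and 3 overlapping windows of S100A8). Capitals mark the NF-κB match.

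LCN2 promoter, chr9:128149203-128149502, plus strand: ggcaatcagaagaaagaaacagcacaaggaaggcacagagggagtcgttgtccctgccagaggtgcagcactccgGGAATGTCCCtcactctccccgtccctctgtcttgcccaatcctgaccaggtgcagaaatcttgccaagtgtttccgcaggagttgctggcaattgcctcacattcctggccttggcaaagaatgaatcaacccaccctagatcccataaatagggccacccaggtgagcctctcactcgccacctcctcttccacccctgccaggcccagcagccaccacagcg

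PTX3 promoter, chr3:157436600-157436899, plus strand: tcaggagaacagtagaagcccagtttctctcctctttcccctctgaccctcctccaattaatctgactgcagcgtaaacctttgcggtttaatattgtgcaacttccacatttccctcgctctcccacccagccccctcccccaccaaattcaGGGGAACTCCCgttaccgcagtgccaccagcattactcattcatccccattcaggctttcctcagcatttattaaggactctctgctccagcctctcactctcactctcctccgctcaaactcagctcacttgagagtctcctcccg

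The match is at bases 76 to 85 of the LCN2 window, on the opposite strand, and at bases 154 to 164 of the PTX3 window, where overlapping matches were found on both strands. An NF-κB match was present in 2 of the 7 windows and in 11.3% of all 35116 windows in the table. The C/EBP motif TTNNGNAA was found in 7 of the 7 windows and in 36.8% of all windows. The STAT3 motif TTCNNNGAA was found in 0 of the 7 and in 7.66% of all. Both strands were searched. A match is a description of letters and not a binding site.

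IL-1β was accompanied by higher levels of LCN2, of the 3 SAA genes, of PTX3 and of PI3 on all 4 slides, and by higher levels of SERPINA3 and SLPI mainly on the slides HK-2 replicate 1 and RPTEC/TERT1 replicate 2. HP was between 0.615- and 1.02-fold of control, and S100A8 was not detected. In limma with 6 groups and no block, which was the main test, 0 of the 9 tested genes passed an adjusted p of 0.05 for the mean of both lines, although 5 had an unadjusted p under 0.05. In this fit 0.0509% of all 15717 genes were called, and adjusted p-values of the 9 genes were between 0.193 and 0.989. Since the arrays of a slide deviated together, the fit with the replicate number as a block, which here is the slide, is given beside it. With the block, 4 of the 9 genes were called higher, SAA1, SAA2, SAA4 and PTX3, while 5.5% of all genes were called and 2.02% were called higher. When 1 effect per treatment was fitted over the 4 slides, LCN2 was called as well, making 5 of 9, against 12.4% of all genes called and 4.52% called higher. This fit does not use the line labels, whereas the p-values of the main test and of the blocked fit depend on them. The blocked calls also depended on the filter: with dim probes kept in the test, the blocked fit called 0 of the 10 genes, and the adjusted p of the same 4 genes was between 0.153 (SAA2) and 0.170 (PTX3). LCN2, PTX3, SAA4 and the tested SAA2 probe passed the filter only through the IL-1β groups, in which they were high, so that their calls rest on it. SLPI passed only through the IL-1β group of HK-2. The calls with 1 effect rested on the slides with the highest values. That fit called 0 of the 9 genes without the slide of RPTEC/TERT1 replicate 2 and 1 without that of HK-2 replicate 1, but 6 without either of the other slides. The median log2 difference between IL-1β and control was 5.08 over the 9 genes and -0.11 over all genes tested.

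**Figure D1:**
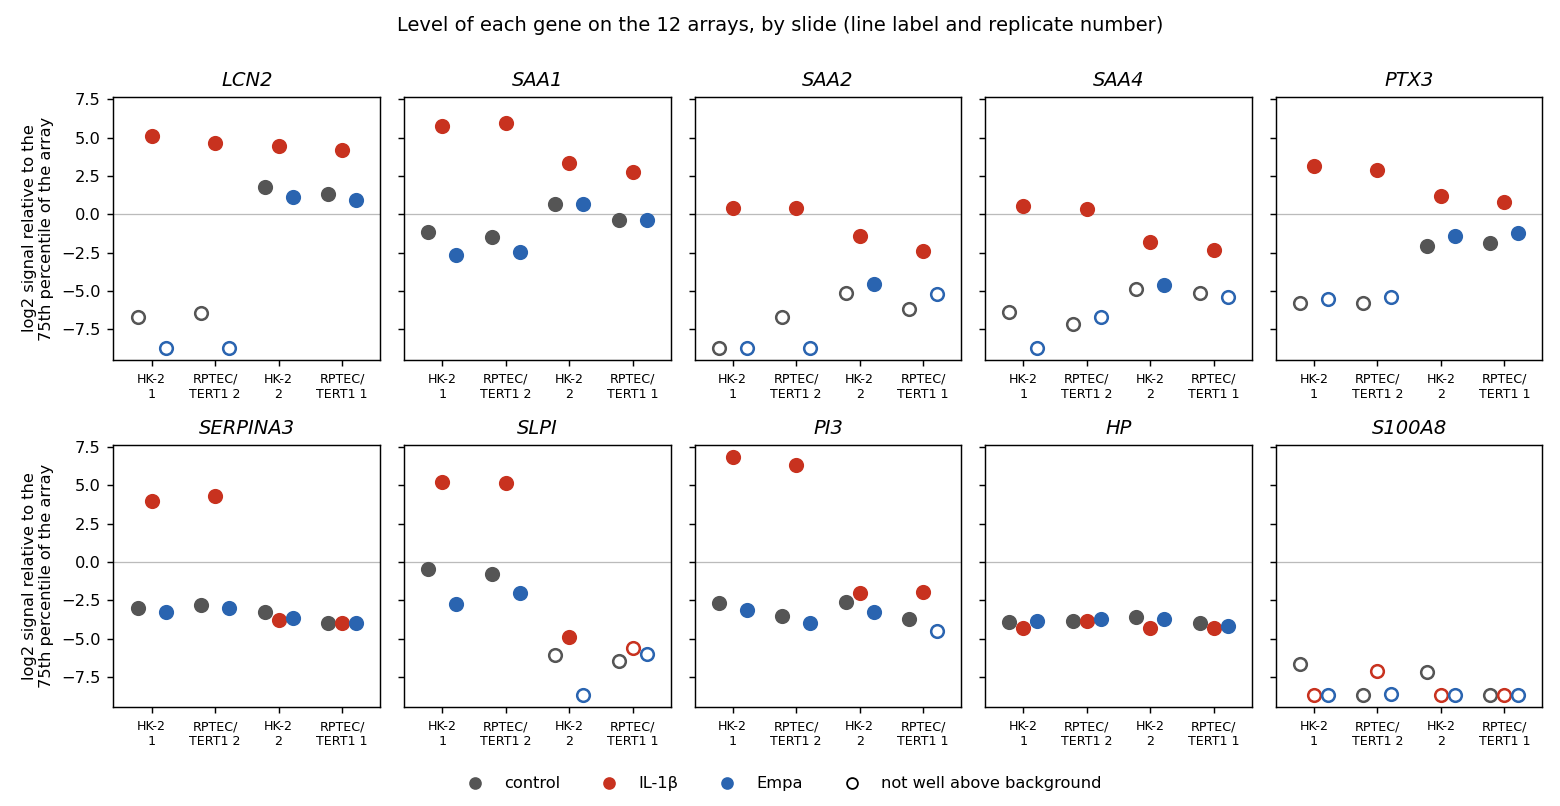
Level of each of the 10 genes on the 12 arrays, as log2 signal relative to the 75th percentile of the array (y axis), by slide (x axis), with 1 point per array in grey (control), red (IL-1β) or blue (Empa). Open points were not well above background. On the IL-1β arrays LCN2 sits between 4.23 and 5.15 on every slide, whereas SERPINA3 and SLPI are high on the slides HK-2 replicate 1 and RPTEC/TERT1 replicate 2 only, and all points of S100A8 are open. For SAA2 and SERPINA3 the tested probe is drawn.

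LCN2 was detected on every IL-1β array, and its basal level separated the slides. On the control arrays its level was -6.67, -6.41, 1.76 and 1.33, and on the IL-1β arrays 5.15, 4.68, 4.45 and 4.23. The control signal was well above background only on the slides HK-2 replicate 2 and RPTEC/TERT1 replicate 1, while all 4 IL-1β arrays had a clear signal within a narrow range. The ranges of control and IL-1β arrays did not overlap. Where both arrays were detected, IL-1β was 6.46-fold (HK-2 replicate 2) and 7.45-fold (RPTEC/TERT1 replicate 1) above control. On the remaining slides only a bound can be given, at least 2007-fold (HK-2 replicate 1) and at least 1271-fold (RPTEC/TERT1 replicate 2). Each such bound sets the IL-1β signal against the lowest signal that was well above background on the control array, or the gene's own signal where that was higher. Undetected signals can lie above that lowest signal, as SAA4 did on the control array of HK-2 replicate 2. The bounds are therefore approximate and can be too high. The mean log2 difference was 7.12 (SD 5.01, n = 4 slides), a value that depends on the floor on the slides without a detected control and was 4.40 with the authors' table. In limma it had an adjusted p of 0.655 without a block, 0.0934 with the replicate block and 0.0359 with 1 effect over the slides.

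The inducible serum amyloid gene SAA1 was well above background on all 12 arrays, so that every slide gave a measured ratio. Its level was -1.17, -1.46, 0.71 and -0.37 on the control arrays and 5.76, 5.95, 3.35 and 2.74 on the IL-1β arrays. The control levels were lower, and the IL-1β levels higher, on the slides HK-2 replicate 1 and RPTEC/TERT1 replicate 2 than on the other slides, and no IL-1β array overlapped a control array. With IL-1β, SAA1 was 122-, 170-, 6.24- and 8.61-fold above control. The mean log2 difference was 5.02 (SD 2.49, n = 4 slides), with a limma adjusted p of 0.193 without and 0.0451 with the replicate block.

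SAA2 was read by 2 probes. The tested probe (A_33_P3408913) was not well above background on any control array and was detected on all 4 IL-1β arrays, at levels of 0.44, 0.41, -1.40 and -2.41. IL-1β was at least 76.6-, 66.1-, 13.3- and 13.3-fold above control on the single slides, and the geometric mean of these 4 bounds was 30.8-fold. In limma, SAA2 had an adjusted p of 0.202 without and 0.0382 with the replicate block, the lowest of the 9 genes in the blocked fit. The other probe (A_33_P3408918) was detected on every array with a value, but its spot was marked as an outlier on the IL-1β array of HK-2 replicate 2, and it was left out of the fit. On the other slides it gave 89.7-fold (HK-2 replicate 1), 103-fold (RPTEC/TERT1 replicate 2) and 7.33-fold (RPTEC/TERT1 replicate 1). As for SAA1, both ratios on the first pair of slides were above the one measured on the last pair.

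SAA4, known for constitutive expression in the liver, was not well above background on any control array, and its probe was spotted 10 times. Its level on the IL-1β arrays was 0.57, 0.37, -1.83 and -2.35, compared with -6.40, -7.17, -4.84 and -5.15 on the control arrays. All 4 IL-1β arrays were detected and none overlapped a control array. IL-1β was at least 84.0-, 64.2-, 8.06- and 6.96-fold above control, and the geometric mean of these 4 bounds was 23.4-fold. The limma adjusted p was 0.197 without and 0.0455 with the replicate block. Across the 12 arrays, the levels of SAA4 and SAA1 correlated with r = 0.988 and those of SAA2 and SAA1 with r = 0.979, values that include the difference between treatments and between slides. SAA4 and the tested SAA2 probe were each well above background on only 5 of the 12 arrays, so that most of their values are undetected signals.

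PTX3, likewise spotted 10 times, shared with LCN2 the pattern of basal detection. Its control level was -5.80, -5.77, -2.07 and -1.85, and well above background only on the last pair of slides. On the IL-1β arrays it was 3.17, 2.89, 1.22 and 0.81, above every control array. IL-1β was at least 501- and at least 368-fold above control on the first pair of slides. On the last pair the ratios were measured and came to 9.78- and 6.30-fold. The mean log2 difference was 5.89 (SD 3.38, n = 4 slides), with a limma adjusted p of 0.280 without and 0.0469 with the replicate block.

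**Figure D2:**
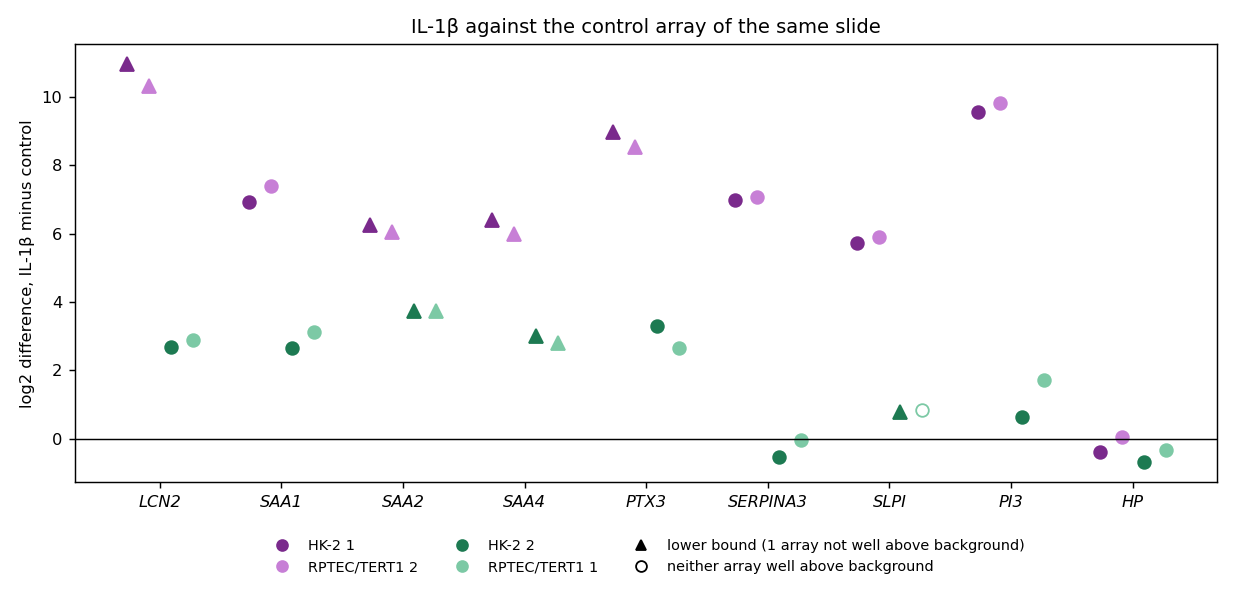
Log2 difference between the IL-1β and the control array of the same slide (y axis) for the 9 tested genes (x axis), 1 symbol per slide. Circles are measured ratios, triangles are lower bounds where the control array was not well above background, and the open circle marks a pair in which neither array was. The purple symbols (HK-2 replicate 1 and RPTEC/TERT1 replicate 2) lie above the green ones for every gene except HP, and for SERPINA3 the green symbols lie at or below 0.

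Among the antiproteases, PI3 had the largest ratios among those measured on both arrays. Its level was -2.68, -3.52, -2.64 and -3.70 on the control arrays and 6.87, 6.31, -1.996 and -1.985 on the IL-1β arrays. All 8 of these signals were well above background, and the ranges of control and IL-1β arrays did not overlap, although on the last pair of slides they came close. IL-1β was 749-, 905-, 1.56- and 3.29-fold above control. The mean log2 difference of 5.43 had an SD of 4.93 (n = 4 slides), and PI3 was called in none of the 3 limma fits (adjusted p 0.580 without a block, 0.127 with the replicate block and 0.0568 with 1 effect over the slides).

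SLPI, the neighbour of PI3 on chromosome 20, was expressed on the control arrays of the slides HK-2 replicate 1 and RPTEC/TERT1 replicate 2, where its level was -0.48 and -0.78. On the control arrays of the last pair it was -6.09 and -6.47, not well above background. This basal order was opposite to that of LCN2 and PTX3. With IL-1β the level was 5.24, 5.11, -4.89 and -5.63. That was 52.8- and 59.5-fold above control on the first pair of slides and at least 1.73-fold on HK-2 replicate 2, while neither array was detected on RPTEC/TERT1 replicate 1. The limma adjusted p of SLPI was 0.989 without a block, 0.130 with the replicate block and 0.0730 with 1 effect over the slides.

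SERPINA3 was higher with IL-1β on the same pair of slides and not on the others. Its tested probe (A_33_P3399788) was well above background on all 12 arrays. The level was -2.98, -2.78, -3.24 and -3.95 on the control arrays and 4.00, 4.29, -3.78 and -4.01 on the IL-1β arrays, which was 126-, 134-, 0.687- and 0.963-fold of control. The other probes were higher on the same slides, but the sizes differed. The bounds of A_23_P2920 lay above both ratios of the tested probe, which alone was detected on the control arrays. The cause of that difference was not tested. A_23_P2920 was at least 640- and at least 403-fold higher on the first pair of slides, and A_23_P162918 at least 191- and at least 122-fold. On the slides HK-2 replicate 2 and RPTEC/TERT1 replicate 1, neither of these probes was well above background with or without IL-1β. The limma adjusted p of SERPINA3 was 0.854 without and 0.252 with the replicate block.

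HP was well above background on all 12 arrays but did not follow the other genes. Its level was between -4.00 and -3.58 on the control arrays and between -4.34 and -3.83 on the IL-1β arrays, so that the ranges overlapped. Cross-hybridisation with the closely related gene HPR was not tested. IL-1β was 0.761-, 1.02-, 0.615- and 0.794-fold of control, with a limma adjusted p of 0.912 without and 0.268 with the replicate block. S100A8 was not well above background on any array, and S100A9, which encodes the other subunit of calprotectin, was well above background on 2 of 12 arrays. No difference is given for S100A8 for this reason.

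Taking the slides as replicates of the treatment, IL-1β was above control on all 4 slides for 7 of the 9 tested genes, the exceptions being HP and SERPINA3. This pattern was present in 15% of all genes tested. The IL-1β arrays lay above every control array for 6 of the 9 genes (LCN2, SAA1, SAA2, SAA4, PTX3 and PI3), compared with 3.65% of all genes. However, LCN2, PTX3, SLPI, SAA4 and the tested SAA2 probe passed the filter only through IL-1β groups. The filter thus favoured both patterns, and neither count is independent evidence. For SLPI, neither array was detected on RPTEC/TERT1 replicate 1, so that its sign there is not a measured direction. By line label, 0 of the 9 genes were called for IL-1β in HK-2 or in RPTEC/TERT1 cells by limma with the replicate block, where 0.255% and 0.261% of all genes were called. The difference between the lines was called for 0 genes in either fit. With line labels that the arrays go against, an effect of the line and an effect of the slide cannot be told apart here.

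**Figure D3:**
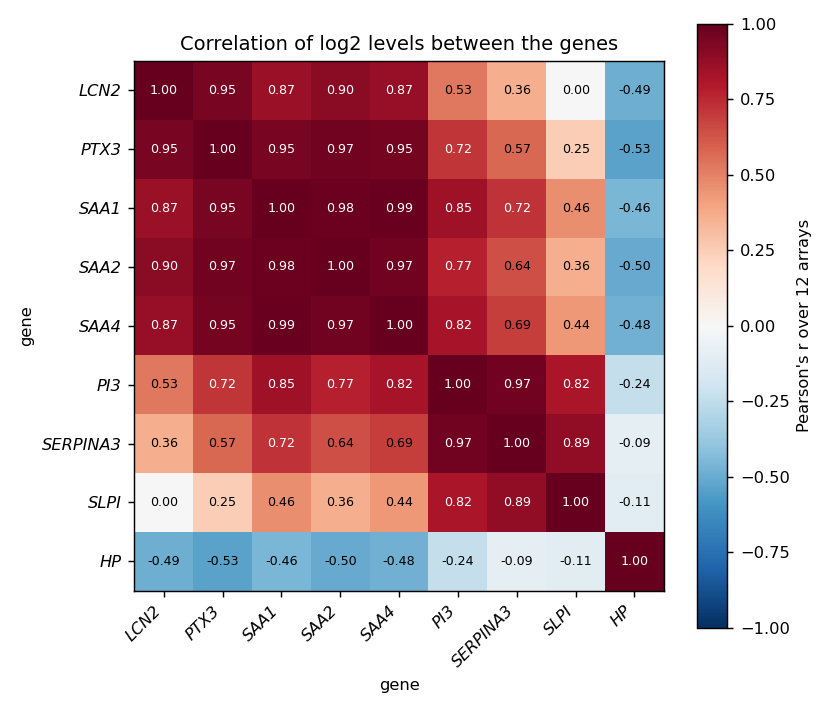
Pearson's r between the log2 levels of the 9 tested genes over the 12 arrays, with both axes listing the genes and colour giving r from -1 (blue) to 1 (red). LCN2, PTX3 and the SAA genes have r between 0.87 and 0.99 with each other, PI3, SERPINA3 and SLPI between 0.82 and 0.97, PI3 also has r of 0.85 with SAA1 and 0.82 with SAA4, and HP has negative values with all others.

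The correlations over the 12 arrays are a description, since the arrays share slides and treatments. They also include undetected signals, since LCN2 and PTX3 were well above background on 8 arrays and SLPI on 7. PI3 and SERPINA3 correlated with r = 0.968, and SLPI with SERPINA3 with r = 0.887. PI3 was as close to SAA1 (r = 0.851) and SAA4 (r = 0.821) as to SLPI (r = 0.815). LCN2 correlated with PTX3 with r = 0.946, but with SERPINA3 with r = 0.362 and with SLPI with r = 0.005. Of 15253 genes compared, the 5 whose levels were most like those of LCN2 over the 12 arrays were ICAM1 (r = 0.996), BATF3 (r = 0.990), BID (r = 0.989), SERPINA1 (r = 0.985) and NFKBIZ (r = 0.985). ICAM1 encodes an adhesion molecule for leukocytes, BATF3 a transcription factor and BID a regulator of apoptosis. SERPINA1 encodes α1-antitrypsin, another acute-phase inhibitor of elastase, and NFKBIZ encodes IκBζ, a nuclear cofactor of NF-κB known to be needed for LCN2 expression.

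Empa was accompanied by smaller differences, and limma called 0 of the 9 genes in each of the 3 fits. Adjusted p-values were 1 for all 9 genes without a block, between 0.680 and 0.979 with the replicate block and between 0.589 and 0.972 with 1 effect over the slides, and 0 of the 9 had an unadjusted p under 0.05. Over all genes tested, 0%, 0% and 0.00636% were called in these fits. In each fit, both treatments share the residual spread of a gene, which also holds the differences between its IL-1β arrays. These p-values therefore do not measure the spread of the Empa differences alone. The median log2 difference between Empa and control was -0.47 over the 9 genes and -0.02 over all genes tested. Of the 36 pairs of gene and slide, 21 were measured on both arrays, of which 16 were lower and 5 higher with Empa. In 12 neither array was well above background, and 3 were bounds. PI3 was at least 1.76-fold lower on RPTEC/TERT1 replicate 1. On HK-2 replicate 2, the tested SAA2 probe was at least 1.49-fold and SAA4 at least 1.17-fold higher. The pairs share slides and control arrays, so that these counts are a description.

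**Figure D4:**
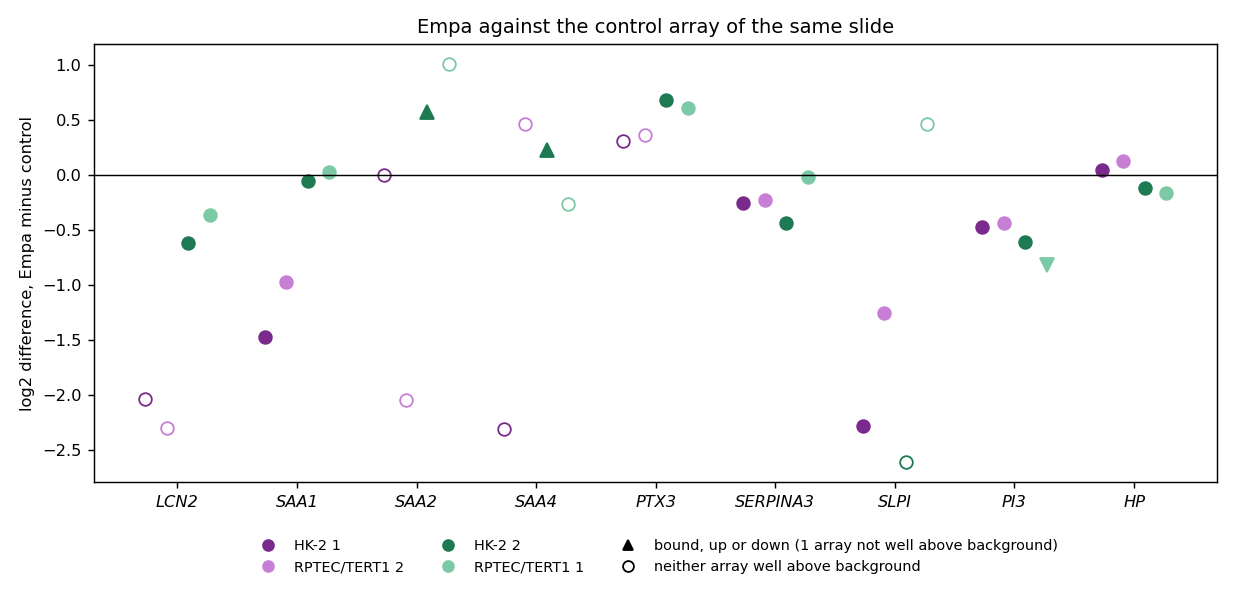
Log2 difference between the Empa and the control array of the same slide (y axis) for the 9 tested genes (x axis), 1 symbol per slide. Filled circles are measured ratios, triangles are bounds, and open circles mark pairs in which neither array was well above background. The filled circles lie between -2.28 (SLPI, HK-2 replicate 1) and 0.68 (PTX3, HK-2 replicate 2), and those of PI3 lie below 0 on each slide that has one.

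PI3 was lower with Empa on all 4 slides. Its level on the Empa arrays was -3.15, -3.96, -3.24 and -4.52, which was 0.720-, 0.738- and 0.657-fold of control on the first 3 slides and at least 1.76-fold lower on RPTEC/TERT1 replicate 1, where the Empa array was not well above background. The mean log2 difference was -0.58 (SD 0.17, n = 4 slides), and the limma adjusted p was 0.917 with the replicate block. That fit gave PI3 the same standard error, 1.80, for IL-1β and for Empa. Its p therefore does not measure the spread of the Empa differences. LCN2 was also lower on all 4 slides, but on HK-2 replicate 1 and RPTEC/TERT1 replicate 2 neither array was well above background. On the slides where it was detected, LCN2 was 0.651-fold (HK-2 replicate 2) and 0.778-fold (RPTEC/TERT1 replicate 1) of control. SERPINA3 was the other gene with a lower value on all 4 slides, at 0.838-, 0.854-, 0.740- and 0.991-fold of control. That rests on its tested probe, since its other probes were not well above background on any control or Empa array.

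SLPI and SAA1 had their lower values on the slides HK-2 replicate 1 and RPTEC/TERT1 replicate 2. SLPI was at a level of -2.77 and -2.03 there with Empa, which was 0.205- and 0.420-fold of control. On the other slides neither array was detected. SAA1 was 0.361- and 0.508-fold of control on that pair, and 0.963- and 1.02-fold on HK-2 replicate 2 and RPTEC/TERT1 replicate 1. The SAA2 probe left out of the fit, which was measured on all slides for Empa, gave 0.764-, 0.385-, 1.28- and 1.03-fold of control.

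PTX3 had higher values with Empa on all 4 slides, the only one of the 9 genes with that pattern, which 12.5% of all genes had. On HK-2 replicate 1 and RPTEC/TERT1 replicate 2 neither array was well above background, so that the sign there is not a measured direction. It was 1.60-fold (HK-2 replicate 2) and 1.52-fold (RPTEC/TERT1 replicate 1) of control where both arrays were detected, with a limma adjusted p of 0.901 with the replicate block. HP was between 0.895- and 1.09-fold of control.

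Values below control on all 4 slides with Empa were found for 3 of the 9 genes, compared with 13.9% of all genes tested. For LCN2, neither array was detected on HK-2 replicate 1 and RPTEC/TERT1 replicate 2. Its signs there are not measured directions. Both patterns together, above control with IL-1β and below control with Empa on every slide, were found for LCN2 and PI3, compared with 1.32% of all genes. LCN2 passed the filter only through its IL-1β groups. LCN2, PI3 and SLPI are among the genes that the study picked from these arrays for this pair of directions, so that their directions are not independent evidence. The IL-1β and the Empa arrays were compared with the same control arrays, and a high or low control array moves both differences.

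The genes that drive the acute-phase response were measured on the same arrays. Of 20 regulators listed, 18 were tested. With IL-1β, limma called 1 of them higher without a block, 5 with the replicate block and 9 with 1 effect over the slides, and 0 lower, where 0.0509%, 5.5% and 12.4% of all genes were called in either direction. The 5 were ZC3H12A, IL6, NFKBIA, NFKBIZ and IL1RAP. ZC3H12A, which encodes the RNase regnase-1 that degrades inflammatory mRNAs, rose by 4.50 on the log2 scale (limma adjusted p 0.0202 without a block). IL6, the cytokine that drives the hepatic response, rose by 6.95 (limma adjusted p 0.0116 with the replicate block). NFKBIA, the inhibitor IκBα and a target of NF-κB, rose by 3.69, and IL1RAP, the accessory chain of the IL-1 receptor, by 1.55. IL-1β was above control on all 4 slides for 10 of the 18 regulators, compared with 15% of all genes. STAT3 (0.04) and SOCS3 (-0.13), its feedback inhibitor, had mean log2 differences near 0, but these average opposite signs on the pairs of slides. The differences were 0.53, 0.47, -0.58 and -0.26 for STAT3 and 0.04, 0.15, -0.47 and -0.26 for SOCS3.

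Among 24 other acute-phase genes, 11 were tested and 0 were called with IL-1β in any of the 3 fits, with a median log2 difference of 0.18. Values above control on all 4 slides were found for C3, CFB, CHI3L1 and SERPINA1, 4 of the 11, against 15% of all genes. CFB and CHI3L1 were well above background on 4 IL-1β arrays but on only 2 control and 2 Empa arrays. The filter thus favoured them, and this count is not independent evidence. Complement C3 showed log2 differences of 7.71, 6.37, 0.81 and 1.26, and SERPINA1 differences of 3.11, 3.24, 0.17 and 0.68. The chitinase-like protein CHI3L1 was at least 54.9- and at least 43.8-fold above control on the first pair of slides, where its control was not detected, and its log2 differences on the last pair were 0.38 and 0.62. Complement factor B (CFB) was at least 19.4- and at least 24.1-fold above control on the first pair, with log2 differences of 0.09 and 0.25 on the last. All 4 were thus highest on the pair of slides on which SERPINA3, SLPI and PI3 were highest. At the level of detection, 10 of the 24 genes were well above background on 0 arrays.

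**Figure D5:**
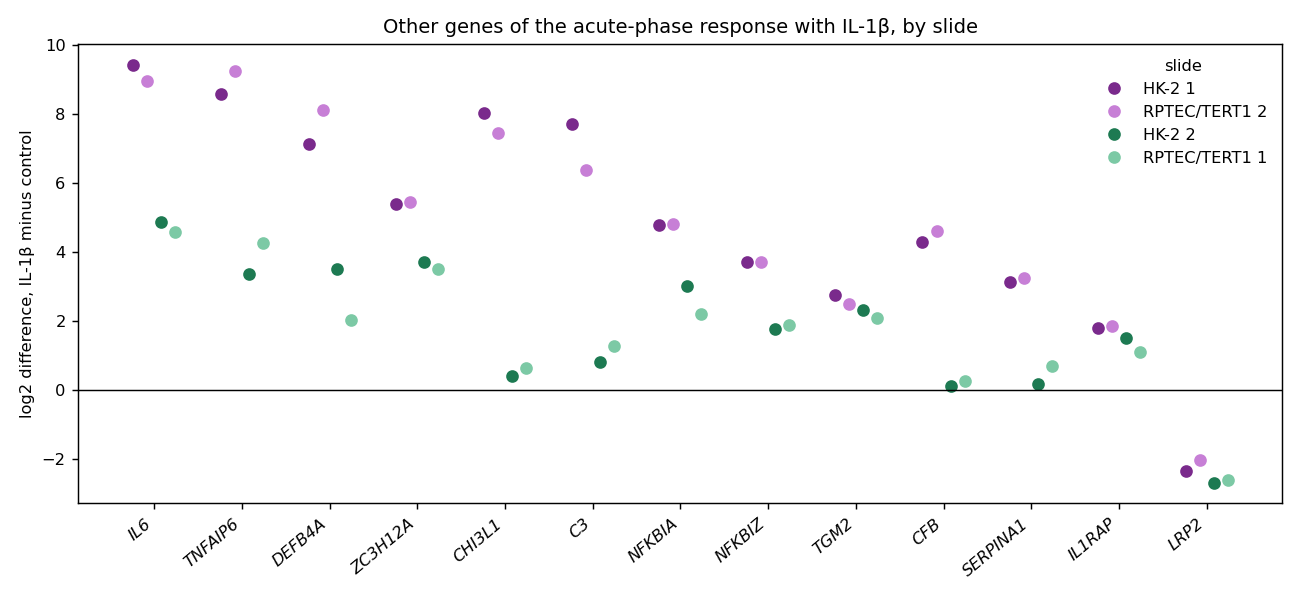
Log2 difference between the IL-1β and the control array of the same slide (y axis) for genes of the 4 lists (x axis), 1 point per slide. The genes shown are those called by limma without or with the replicate block, and the 4 other acute-phase genes above control on all 4 slides, drawn whether or not the control array was well above background. LRP2 lies below 0 on every slide, while C3, CFB, CHI3L1 and SERPINA1 have purple points (HK-2 replicate 1 and RPTEC/TERT1 replicate 2) far above the green ones.

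Of 17 other antimicrobial genes, 7 were tested, and DEFB4A was the one called with IL-1β in the blocked fit. DEFB4A encodes β-defensin 2, has a near-identical copy whose transcript cannot be told apart here, and its mean log2 difference was 5.18 (limma adjusted p 0.266 without and 0.0467 with the replicate block). WFDC2, a relative of SLPI and PI3, had log2 differences of 2.57, 2.87, -0.71 and -0.80. Of 20 binding partners, receptors and target proteases, 10 were tested, and 2 were called higher and 1 lower with IL-1β in the blocked fit, against 0 without a block. TNFAIP6, a binding partner of PTX3 in the hyaluronan matrix, was called higher (limma adjusted p 0.0212 with the replicate block). It was well above background on the 4 IL-1β arrays and on 0 control arrays, and so passed the filter through IL-1β alone. IL-1β was at least 51.1-, 72.1-, 10.1- and 13.1-fold above control. TGM2, a transglutaminase that cross-links elafin, rose by 2.40 on the log2 scale (0.00331 with the replicate block, 0.908 without), with a control not well above background on HK-2 replicate 1. LRP2 (megalin), the endocytic receptor by which the proximal tubule takes up filtered LCN2, fell by 2.44 on the log2 scale (0.00350 with the replicate block, 0.266 without) and was lower on 4 of 4 slides. SLC22A17, described as another LCN2 receptor, had a mean log2 difference of 0.52, and ELANE, the elastase that SLPI and PI3 inhibit, was well above background on 0 arrays. With Empa, 0 genes of the 4 lists were called in any of the 3 fits.

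Markers of other cells that make these proteins were read on the same arrays. Of 7 hepatocyte markers, SERPINA1 was well above background on 12 arrays, APOA1 on 11, AHSG on 2 and APOB on 1. ALB, TTR and F2 were well above background on 0 arrays. The log2 of the summed signal of the hepatocyte list was between 1.39 and 3.78 on the control arrays, between 3.94 and 4.68 with IL-1β and between 1.03 and 3.03 with Empa. That list holds SERPINA1, described above, and its part in the results was not tested. Of 9 leukocyte markers on the array, PTPRC, CD68, CSF3R and CD79A were detected on all 12 arrays, CD14 and ITGAM on 11 and CD3E on 2. MPO and ELANE, the granule proteins of neutrophils, were detected on 0 arrays. The log2 of the summed signal of this list was between 1.97 and 2.92 on the control arrays and between 1.97 and 2.82 with IL-1β.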

How the data were processed

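Each line and treatment is represented by 2 one-color Agilent arrays, 12 in total, and titles of the samples gave line, treatment and replicate number. The authors read the arrays with Agilent Feature Extraction 9.5.3.1, and the deposited intensity of each spot is background-subtracted and not normalized between arrays, with positions on hg19. The authors also deposited a log2 table, described as quantile-normalized, which was used as an alternative.

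Of 44495 spots per array, 43118 non-control spots of 34127 probes were used. Outlier spots were left out and the spots of a probe averaged. Signals were scaled to the 75th percentile of the array, which was between 298 and 765 signal units, floored at 1 unit and log2-transformed. The floor matters for dim probes, since 11.5% to 16.2% of spots per array had a signal of 0 or less. Detection (well above background) required the software's mark on at least 50% of the spots of a probe. The number of arrays limits the precision.

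A gene was tested through its brightest probe that was detected on both arrays of any group, giving 15717 genes. The main test was limma (version 3.58.1, R 4.3.3) on 6 groups with no block and 6 residual degrees of freedom. P-values were adjusted by Benjamini-Hochberg over all genes and called at 0.05. The arrays of a replicate number in a line lie on the same slide, per the file headers, and their deviations from the group means correlated with r between 0.627 and 0.895, so that blocked fits (4 residual degrees of freedom) and 1 effect per treatment over the 4 slides are given beside it. Data were simulated with 200 genes among 15717 changed by 2 on the log2 scale. The fit without a block recovered 3.5% with 0 false calls, and the blocked fit 76.5% with 15 false among 168 calls. The fit of 1 effect recovered 82% with 7 false among 171 calls. In the simulation a gene changed equally on every slide, with normal noise and no floor. The genes described here differed between slides and were often near the floor, so these rates need not hold for them.

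Named were all 10 genes with every probe, genes of 4 lists that passed the threshold without or with the block (at most 8 per list), and the 5 genes most correlated with LCN2 among those well above background on at least 6 arrays. A few further genes were picked for mention with their values known. The genes and lists were chosen with earlier results of these data known. The alternatives were quantile normalization, normexp background correction (offset 50), the authors' table, other filters, a floor of 5 units, the scan day as a block and leaving out single arrays or slides.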

Additional observations from a re-analysis of the deposited data

How the results depend on the processing

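The direction of the IL-1β differences was the same for all 9 tested genes under each of 32 alternatives that gave a value. The count of the 9 genes called for IL-1β, 0 without a block, was 4 with the replicate block, 5 with 1 effect per treatment, 2 with quantile normalization and the block, 5 with the authors' table and the block, 4 with a floor of 5 signal units and the block and 4 with normexp correction and the block, but 0 with the block and no filter on dim probes, and 0 under the remaining alternatives with all arrays. The methods' t-test on the same values put 5 of the 9 genes under its unadjusted threshold for IL-1β and 0 for Empa, and 0 after Benjamini-Hochberg adjustment. Leaving out 1 array at a time without a block gave 0, and leaving out 1 slide at a time with 1 effect per treatment gave 0 to 6 (0 without RPTEC/TERT1 replicate 2, 1 without HK-2 replicate 1). Leaving out slides and the floor, normexp and no-filter settings with the block were chosen after seeing the data. The block changed no call for Empa or for single line labels. The cause of these changes was not tested.

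The Empa differences changed sign more often. With 1 array left out they ranged from -3.79 to 1.13 for LCN2, from -1.44 to 0.21 for SAA1, from -1.15 to 0.92 for SAA2, from -1.50 to 0.56 for SAA4, from -0.135 to 0.082 for HP, from -0.55 to 1.53 for PTX3, from -0.53 to 0.061 for SERPINA3 and from -2.91 to 0.063 for SLPI. PI3 remained below 0, between -0.72 and -0.44. SAA2 was at 0.069 with the authors' table and 0.40 with a floor of 5 units, with or without the block, and 0.53 without the slide of RPTEC/TERT1 replicate 2. SAA4 was at 0.031 with the authors' table, with or without the block, and 0.14 without the slide of HK-2 replicate 1. HP was at 0.035 with quantile normalization and 0.013 with normexp correction, with or without the block, and at 0.018 and 0.005 without the slides of RPTEC/TERT1 replicate 1 and HK-2 replicate 2. These values are log2 differences whose adjusted p was above 0.05 in each case.

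The signal over background limits LCN2 and PTX3 on 2 slides, SLPI on the other 2, and SAA4 and the tested SAA2 probe on all control arrays, where folds are bounds. With 2 arrays per group, a p that misses the threshold does not show that levels were equal. Across all genes, 8 were called for IL-1β without a block, 864 with it and 1955 with 1 effect over the slides.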
